A study of Saccharomyces cerevisiae with 6 samples.

Results

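The genes described here are those on which the *ccr4Δ* mutation had opposite effects in log phase and in stationary phase on yeast expression arrays. A gene was included when its *ccr4Δ* over wild-type ratio was at least 1.5-fold up in one growth phase and at least 1.5-fold down in the other, and when all its spots passed the scanner's test against background on the 4 arrays of wild-type and *ccr4Δ*. Of 6225 gene names on the array, 5755 met the background condition and 207 met the rule. In 117 of them the ratio was up in log phase and down in stationary phase (2.03% of the 5755), and in 90 it was down in log phase and up in stationary phase (1.56%). The genes were thus chosen by these ratios, which are given as a description and not as a test.

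Cells of *Saccharomyces cerevisiae* with the genotypes wild-type, *ccr4Δ* or *ccr4Δ pbp1Δ* supplied total RNA, each grown in YPD, a rich glucose medium, at 28°C to log phase or to stationary phase. The strains are W303 derivatives. The strain list of the study gives a wild-type that is *MATα* and a *ccr4Δ* strain that is *MATa*, in which the Candida glabrata *LEU2* marker replaces *CCR4*. Both carry *ade2 trp1 can1 leu2 his3 ura3*, and the wild-type is also marked *GAL psi+ HOp-ADE2-HO 3' UTR*. The list does not say which strains went onto the arrays. The methods sampled cells in YPD 4 hours after dilution into fresh medium, without naming the arrays or a time for stationary phase. The alleles of the *ccr4Δ pbp1Δ* strain are not given in the sources used here. Each strain and growth phase had 1 array with 1 colour, Cy3, made from 100 ng of RNA. As RNA amounts were equal, a change in the total mRNA of a cell would not show, and fewer cells with an mRNA and less of it per cell cannot be told apart. With 1 array for each of the 6 conditions there was no replicate check and no p-value could be computed.

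Ccr4 is the main catalytic subunit of the Ccr4-Not deadenylase, which shortens poly(A) tails and so starts the decay of most mRNAs. Pbp1 binds the poly(A)-binding protein Pab1. While glucose lasts, yeast cells repress genes for other carbon sources and put much of their transcription into ribosomes and biosynthesis. As glucose runs out at the diauxic shift, the kinase Snf1 and the factors Adr1, Cat8, Msn2 and Msn4 turn on genes for high-affinity hexose uptake, respiration, gluconeogenesis, storage carbohydrates and stress defence, while ribosomal and biosynthetic genes go down. Stationary phase follows when the remaining carbon is used up.

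Levels below are log2 signals minus the 75th percentile of the array, so that a level of 0 is that percentile. Ratios are differences of such levels and are also log2 values. A level belongs to its own probe and is not set against that of another gene. Each probe had 2 spots, and errors are standard errors of a ratio from these spots, which measure the array and not the culture. Of the probes of an array, 92.7% to 98.4% were well above background. The spots of a probe differed with an SD of 0.08 to 0.09. *CCR4* was well above background only on the wild-type arrays, at least 108-fold above the *ccr4Δ* array in log phase and at least 134-fold in stationary phase. *PBP1* was not well above background on either *ccr4Δ pbp1Δ* array. The slide of the wild-type log phase array held no other array and the other 5 shared a second slide, so in every log phase ratio against wild-type the slide and the strain cannot be told apart. Mating type also differed on the arrays: the 5 measured **a**-specific genes had median ratios of 6.18 (log phase) and 4.47 (stationary phase), and the 4 α-specific genes had medians of -7.65 and -3.31. None of these 9 genes was among the 207, and the part of mating type in the results was not tested.

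The split by direction depended on the scaling of the arrays. *ACT1*, the actin gene, had ratios of -0.34 (log phase) and 1.32 (stationary phase), and *PGK1* had ratios of -0.37 and 2.04. With *ACT1* as the reference of each array, 1113 genes were up in log phase and down in stationary phase and 3 were the other way. With no scaling the counts were 197 and 46. All 117 genes of the first kind kept both signs under each scaling tried, *ACT1* included. Of the 90 genes of the second kind, 29 kept both signs with *ACT1* as the reference, and all 90 did with no scaling, the median, quantile normalization, normexp and the authors' processed values. No scaling, the median and *ACT1* each move all ratios of a phase by the same amount. With *ACT1* its ratios of -0.34 and 1.32 are subtracted from every ratio, so the 117 genes could only keep their signs. With no scaling and the median the amounts were below the limit of the rule. Under these 3 scalings the kept signs are thus arithmetic and not a check of the genes. In the following, higher and lower are relative to the 75th percentile of the array.

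**Figure D1:**
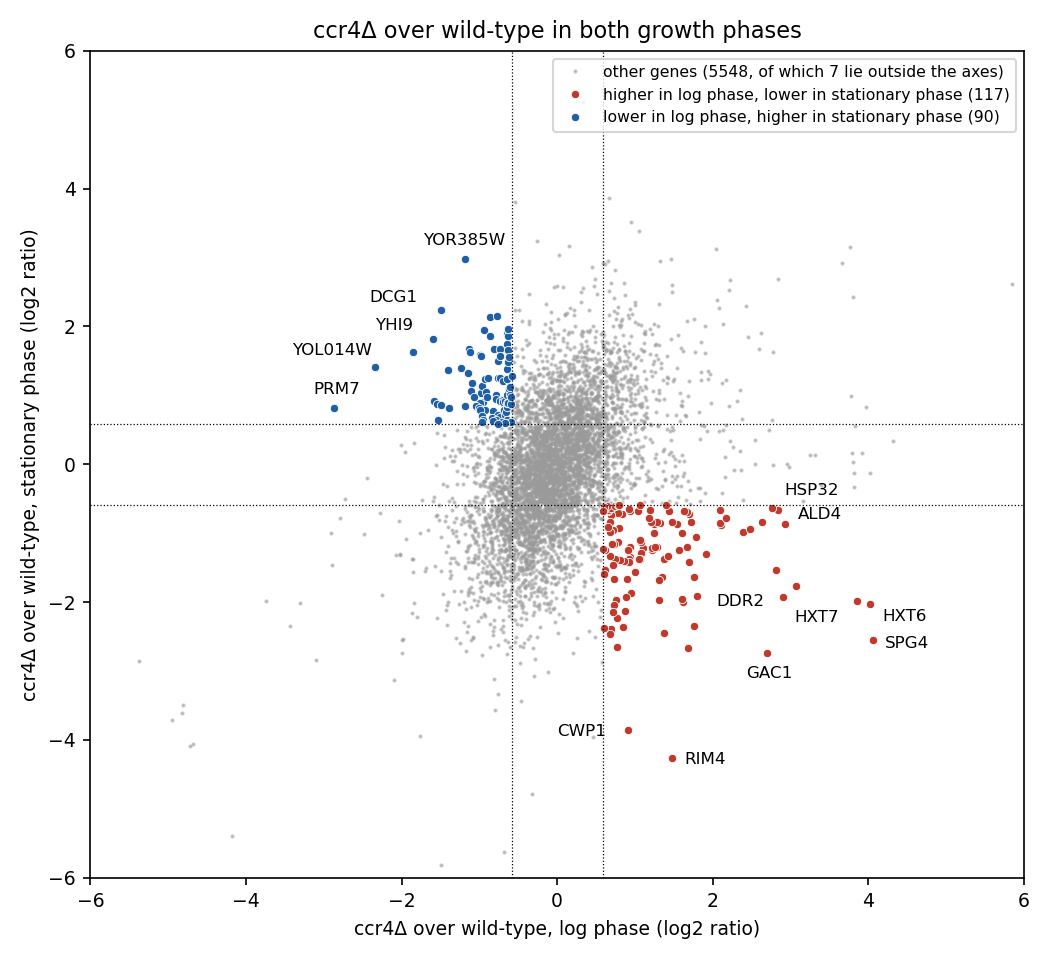
Ratios of *ccr4Δ* over wild-type (log2) are plotted for log phase (horizontal axis) and stationary phase (vertical axis) for the 5755 genes measured, 1 point per gene, with dotted lines at 1.5-fold; 7 genes lie outside the axes. The 117 genes at the lower right reach a ratio of 4.06 in log phase (*SPG4*) and -4.26 in stationary phase (*RIM4*), and the 90 genes at the upper left reach -2.87 (*PRM7*) and 2.97 (YOR385W).

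Opposite effects were the smaller part of the changes. In log phase 785 genes (13.6%) were higher and 909 (15.8%) were lower in *ccr4Δ* by at least 1.5-fold. In stationary phase 1293 (22.5%) were higher and 1671 (29.0%) were lower. Of the 785 genes that were higher in log phase, 360 were also higher in stationary phase, 308 were within 1.5-fold and 117 were lower. Of the 909 that were lower in log phase, 495 were also lower in stationary phase, 324 were within 1.5-fold and 90 were higher. The limit cut through a continuous range: *DUG1*, *FLC1* and *ATG34* lay just inside, with a smaller absolute ratio of 0.59 each, and *SRL1*, *GEX1* and *WSC3* lay just outside with 0.58. At a limit of 2-fold in both phases, 36 and 13 genes remained.

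Among the 117 genes that were higher in log phase, the median ratio was 1.07 in log phase and -1.21 in stationary phase, against -0.07 and -0.08 over all 5755 genes. The difference between the phases ranged from -1.22 to -6.61. The genes with the largest opposite effects encode sugar and glycerol transporters, glycogen and stress proteins, and regulators and enzymes of carbon and nitrogen use. Each of the 12 named first was lowest in wild-type log phase cells, or next to lowest in *GDH3* and *DAL80*, and highest in wild-type stationary cells, with the mutants in between.

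Glucose transporters gave some of the largest values. *HXT6*, a high-affinity transporter that is repressed by ample glucose, had levels of -1.38, 2.64 and 1.69 in wild-type, *ccr4Δ* and *ccr4Δ pbp1Δ* in log phase, and of 4.26, 2.23 and 2.78 in stationary phase. The *ccr4Δ* ratio was 4.02 ± 0.03 (16.2-fold) in log phase and -2.03 ± 0.09 in stationary phase, where wild-type was 4.08-fold higher. From log to stationary phase the *ccr4Δ* level changed by -0.41, while the wild-type level changed by 5.64. *HXT7*, its neighbour and near-identical copy, had levels of -0.49, 3.36 and 2.54 in log phase and of 4.53, 2.54 and 2.79 in stationary cells. The array may not separate these copies, so they count as 1 signal. *HXT5*, a transporter made by slowly growing cells, had levels of -4.96, -3.34 and -4.14 in log phase, then 2.38, 0.38 and 1.67 in stationary phase. It differed from *HXT6* in that the *ccr4Δ* level was still 13.2-fold higher in stationary phase, against 162-fold in wild-type. *HXT4*, with ratios of 1.61 and -1.0, and *MTH1*, a repressor of hexose transporter genes in the glucose-sensing pathway, with 2.63 and -0.84, belonged to the same list.

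That list of hexose transporters and glucose sensors had 24 genes on the array, of which 18 were measured. In log phase 9 of the 18 were higher and 3 lower, in stationary phase 4 were higher and 9 lower, and 5 (27.8%) were among the 117. *HXT11*, *HXT13*, *HXT14*, *HXT15*, *HXT16* and *HXT17* did not meet the background condition and are not in these counts or the median. Their ratios, from dim signals, were positive in both phases, such as 3.79 and 2.94 for *HXT17* and 0.22 and 1.29 for *HXT14*. *HXT1* and *HXT3*, the low-affinity transporters of glucose-rich cells, were lower in *ccr4Δ* in both phases, with ratios of -2.27 and -0.70 for *HXT1* and -1.42 and -0.76 for *HXT3*. *HXT9* was higher in both phases, with 2.08 and 2.27. The opposite pattern was thus seen in *HXT4*, *HXT5*, *HXT6* and *HXT7* and not across the family.

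**Figure D2:**
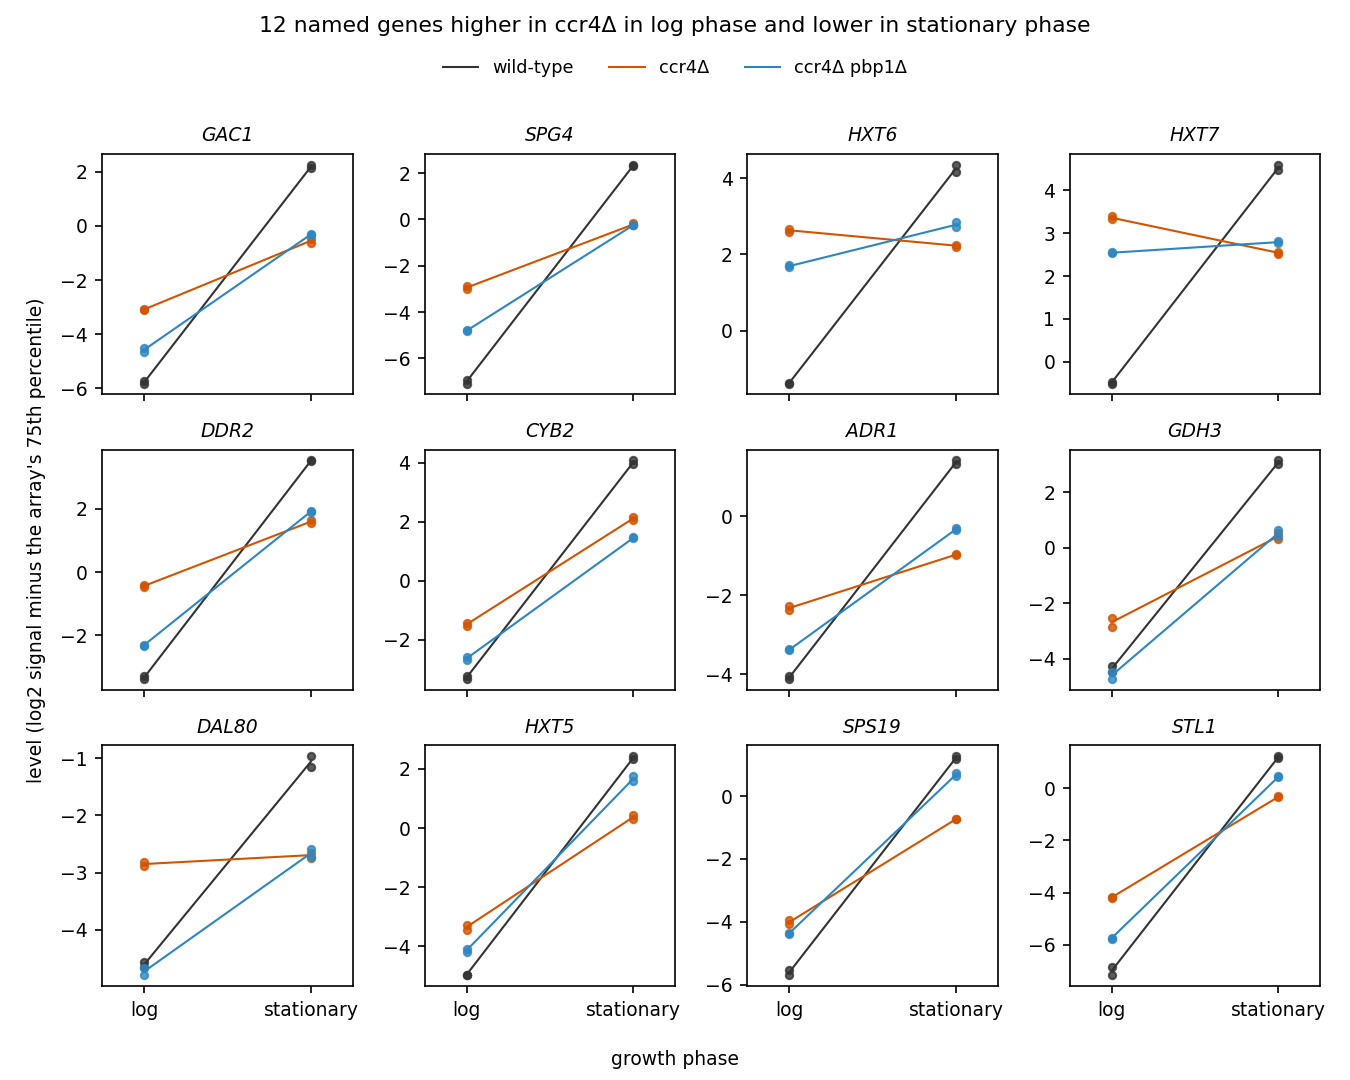
Levels (log2 signal minus the array's 75th percentile, vertical axes of differing range) in log and stationary phase for 12 genes that were higher in *ccr4Δ* in log phase and lower in stationary phase; points are the 2 spots of each array and lines join the spot means of each strain. The wild-type line crosses the *ccr4Δ* line in each panel, as the rule requires, and in *GAC1* it goes from -5.79 to 2.20 while *ccr4Δ* goes from -3.09 to -0.54.

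Glycogen metabolism was represented by *GAC1*, *GSY2*, *GLC3* and *PGM2*. *GAC1*, which targets the phosphatase Glc7 to glycogen synthase, had levels of -5.79, -3.09 and -4.59 in log phase, against 2.20, -0.54 and -0.31 in stationary phase. Its ratio was 2.70 ± 0.06 in log phase and -2.74 ± 0.11 in stationary phase, that is 6.51-fold higher and 6.69-fold lower than wild-type. *GSY2*, the main glycogen synthase, had ratios of 1.43 and -1.33, and *GLC3*, the glycogen branching enzyme, 2.39 and -0.98. *PGM2*, a phosphoglucomutase that supplies the precursor, had ratios of 1.44 and -0.68. Its paralog *PGM1* was the only gene of the list in the other direction, with -0.64 and 1.89. Of 20 measured genes for trehalose and glycogen, 9 were higher and 1 lower in log phase, and 1 was higher and 8 lower in stationary phase. *GPH1*, glycogen phosphorylase, was higher in log phase (3.82) but within the limit in stationary phase (-0.33). Of the trehalose synthase subunits, *TPS1*, *TPS2* and *TPS3* stayed within the limit in both phases, and *TSL1* was higher in log phase (1.05) and within the limit in stationary phase (-0.20).

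Genes of stationary phase and desiccation differed from one another in stationary cells. *SPG4*, named for survival in stationary phase at high temperature, had levels of -7.00, -2.94 and -4.81 in log phase and of 2.34, -0.21 and -0.24 in stationary cells. Its ratio of 4.06 ± 0.09 in log phase was the largest of the 117, and its ratio in stationary phase was -2.55 ± 0.04. Wild-type *SPG4* differed 649-fold between the phases, *ccr4Δ* 6.64-fold and *ccr4Δ pbp1Δ* 23.7-fold. The log phase ratio and the 649-fold rest on a dim wild-type signal in log phase. In the same list *SNO1* met the background condition with -7.22 on that array, and *SIP18*, with -7.47, did not meet it. *DDR2*, a multistress response gene, had levels of -3.34, -0.44 and -2.32 in log phase, then 3.53, 1.60 and 1.92 in stationary phase. *GRE1*, *MSC1*, *SPG5* and *UBI4* were also among the 117, with ratios of 1.79 and -1.05 for *GRE1*, 1.28 and -0.84 for *MSC1*, 1.08 and -1.13 for *SPG5*, and 0.75 and -0.60 for *UBI4*, the polyubiquitin gene. Of the 16 measured genes of this list, 13 were higher and 0 lower in log phase. In stationary phase 3 were higher and 6 were lower, which were the 6 genes among the 117 (37.5%). *HSP12*, *HSP26*, *SNO1*, *SNZ1* and *TMA10* were also higher in log phase, with ratios of 3.79, 3.97, 3.31, 2.28 and 4.32, but in stationary phase *HSP26* was higher at 0.83 and the other 4 lay between -0.08 and 0.34. The median of the list was 1.82 in log phase and 0.15 in stationary phase, where it was -0.25 with no scaling and -1.17 with *ACT1* as the reference.

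Genes of non-fermentable carbon use formed the next group. *STL1*, a glycerol transporter, had levels of -7.00, -4.18 and -5.75 in log phase, against 1.20, -0.33 and 0.44 in stationary phase. Its wild-type signal in log phase was as dim as that of *SPG4*. *CYB2*, which oxidises lactate in mitochondria, had levels of -3.28, -1.48 and -2.64 in log phase and of 4.02, 2.12 and 1.46 in stationary cells. *ADR1*, an activator of glucose-repressed genes, had levels of -4.09, -2.33 and -3.39 in log phase, then 1.36, -0.98 and -0.33 in stationary phase. Ratios were 2.82 and -1.53 for *STL1*, 1.80 and -1.91 for *CYB2*, and 1.77 and -2.34 for *ADR1*. *CAT8*, the activator of gluconeogenic genes, had 1.41 and -0.59, close to the limit in stationary phase. *MSN4*, named after its values were seen because it is one of the stress activators, had 0.68 and -2.46, and was 5.50-fold lower than wild-type in stationary phase.

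In the list of gluconeogenic and glucose-repressed carbon genes, 11 of 20 were higher and 0 lower in log phase, and 4 were higher and 9 lower in stationary phase. The 4 among the 117 (20.0%) were *ALD4*, *SFC1*, *CAT8* and *ACS1*. *ALD4*, mitochondrial aldehyde dehydrogenase, had ratios of 2.93 and -0.86, *SFC1*, a succinate-fumarate carrier, had 1.70 and -0.72, and *ACS1*, acetyl-CoA synthetase, had 0.81 and -1.39. The key gluconeogenic enzyme genes *PCK1* and *FBP1* did not pass the limit in either phase, with -0.11 and 0.21 for *PCK1* and 0.18 and -0.52 for *FBP1*. *ADH2* and *HAP4*, which are also glucose-repressed, were lower in stationary phase (-2.74 and -2.02) without being higher in log phase (0.20 and -0.09). The TCA cycle list had 0 of 15 genes among the 207, and the respiratory chain and ATP synthase list 0 of 37. Over all 5755 genes only 2.03% were among the 117 and 1.56% among the 90. Counts of 0 in lists this short are thus not a result about these genes.

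Nitrogen uptake and catabolism had 7 of its 36 measured genes among the 117 (19.4%). In log phase 10 of the 36 were higher and 4 lower, and in stationary phase 1 was higher and 20 lower. *GDH3*, a glutamate dehydrogenase used on poor carbon sources, had levels of -4.36, -2.68 and -4.60 in log phase, against 3.09, 0.42 and 0.54 in stationary phase. *DAL80*, a GATA repressor of nitrogen genes, had levels of -4.61, -2.85 and -4.73 in log phase and of -1.06, -2.69 and -2.66 in stationary cells. The *ccr4Δ* cells had the same *DAL80* level in both phases to within 0.15, whereas wild-type differed by 3.55 and *ccr4Δ pbp1Δ* by 2.07. The proline genes gave larger ratios in stationary phase than in log phase, with 0.85 and -2.36 for the permease *PUT4* and 0.77 and -2.65 for the oxidase *PUT1*. The permeases *UGA4* for GABA, *DAL5* for allantoate and *ALP1* for arginine had ratios of 1.0 and -1.57, 0.73 and -2.04, and 1.48 and -0.84.

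**Figure D3:**
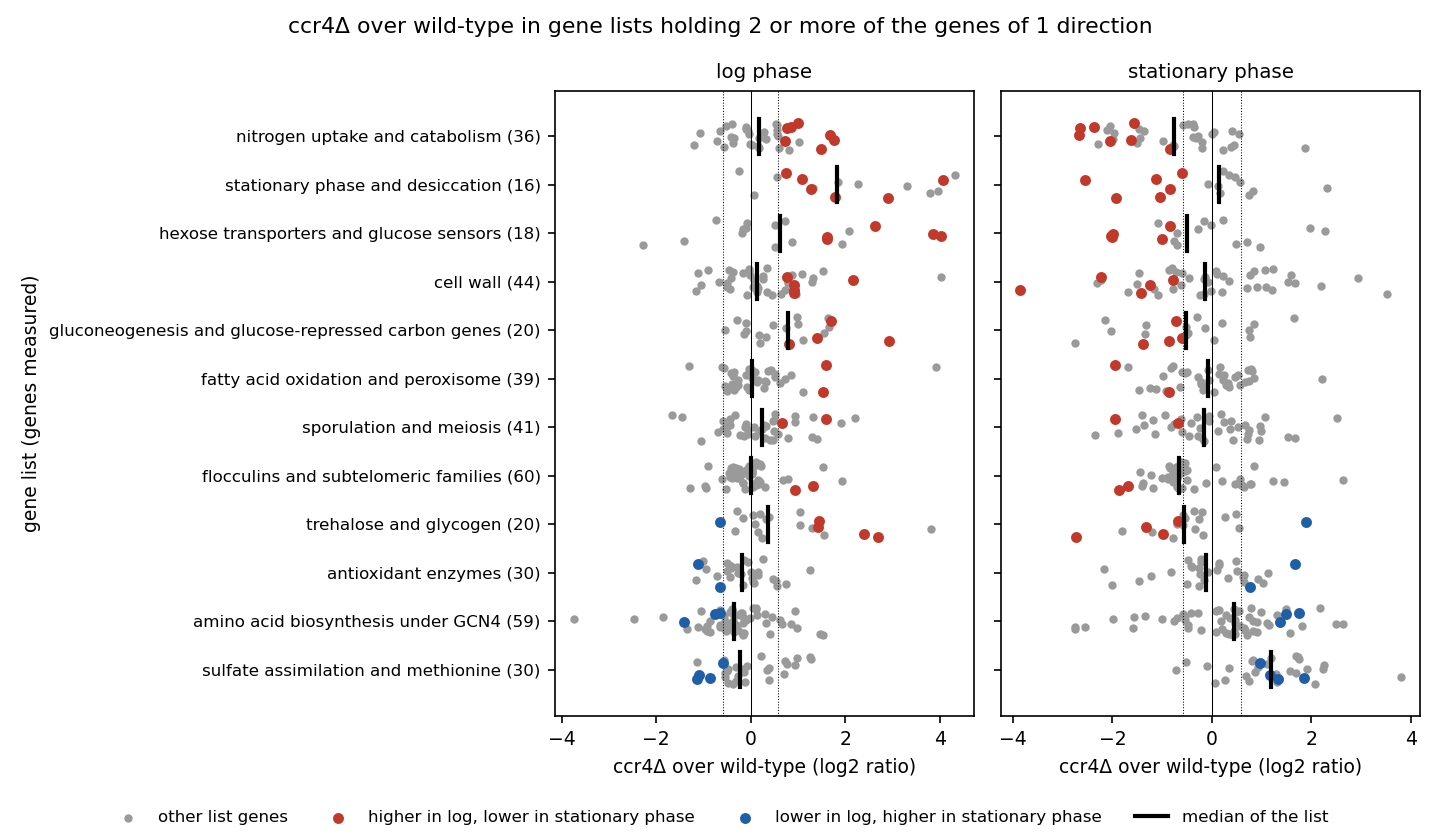
Ratios of *ccr4Δ* over wild-type (log2) in log phase at the left and stationary phase at the right for every measured gene of the lists that held 2 or more of the genes of 1 direction, 1 point per gene, with dotted lines at 1.5-fold a bar at the median of the list, and the genes among the 117 in red and among the 90 in blue. The median of the measured genes of the hexose transporter list is 0.62 at the left and -0.49 at the right, and that of the nitrogen list is 0.17 and -0.77.

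Among the cell wall genes were some whose change between the phases differed in direction between strains. *CWP1*, a mannoprotein of the wall, had levels of 2.33, 3.24 and 3.28 in log phase, then 4.21, 0.35 and 1.06 in stationary phase. It was thus 3.68-fold higher in stationary than in log phase in wild-type cells and lower in stationary phase in both mutants, with a *ccr4Δ* ratio of -3.85 ± 0.09 in stationary phase. *CHS3*, chitin synthase, had levels of 0.45, 1.37 and 1.36 in log phase, against 1.34, -0.08 and -0.47 in stationary phase. *EXG1*, a glucanase, had levels of 2.71, 3.62 and 3.47 in log phase and of 2.84, 1.61 and 0.23 in stationary cells. These 3 genes were higher than wild-type in both mutants in log phase and lower in both in stationary phase. *GSC2*, a glucan synthase subunit, and *PST1*, a wall protein, had ratios of 2.17 and -0.78, and 0.77 and -2.23. The list as a whole had 44 measured genes, of which 16 were higher and 5 lower in log phase and 14 higher and 18 lower in stationary phase, and 5 (11.4%) were among the 117.

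Smaller numbers came from other lists. Their shares were at most 5.13%, from 1 or 2 genes each, against 2.03% of all genes among the 117, and are not read as a result. *SPS19*, a peroxisomal enzyme of fatty acid oxidation that is also induced in sporulation, had ratios of 1.60 and -1.95, and *CRC1*, the mitochondrial carnitine carrier, 1.54 and -0.86, which made 2 of 39 genes for fatty acid oxidation and peroxisomes. *SPO21*, with 0.65 and -0.68, was the other sporulation gene (2 of 41), and its error in log phase of 0.43 came close to its ratio. *COS111* and *AAD10* were 2 of 60 subtelomeric and flocculin genes, with 1.31 and -1.68, and 0.95 and -1.87. *FAA1*, an acyl-CoA synthetase, had 0.80 and -0.92. Some of the largest differences lay outside every list and are named after their values were seen. *RIM4*, an RNA-binding regulator of meiosis, had levels of -5.64, -4.16 and -5.28 in log phase, then 1.54, -2.72 and -2.43 in stationary phase, 19.2-fold below wild-type in *ccr4Δ*. YHR033W, of unknown function, had ratios of 3.07 and -1.76. In all, 41 of the 117 genes were in a list and 76 in none.

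Among the 90 genes that were lower in log phase and higher in stationary phase, the median ratio was -0.80 in log phase and 1.0 in stationary phase. The difference between the phases ranged from 1.20 to 4.15, with a median of 1.99, against a median of -2.42 for the 117. They included genes for sulfate assimilation, amino acid synthesis and thiol redox proteins, 1 gene of a proton pump, and many genes of unknown function. Of the 90, 16 were in a list and 74 in none, and 70 had a gene symbol, against 108 of the 117. The share of all genes in a list or with a symbol was not computed, and the lists were chosen with earlier results known. These counts are thus a description and not a result about the genes. Among the genes named here, the stationary phase ratio with *ACT1* as the reference was below 0 for *MET22*, *SAM1*, *AHP1*, *VMA5*, *SFH5*, *ERG24*, *RRT5* and *DUG1*. It was also below 0 for *RPL18B*, *DDR48*, *PRM7*, *ILM1* and YMR321C.

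Sulfate assimilation held 4 of the 90 genes, out of 30 measured (13.3%). *MET14*, APS kinase, had levels of -0.16, -1.31 and -0.99 in wild-type, *ccr4Δ* and *ccr4Δ pbp1Δ* in log phase, and of -2.0, -0.68 and -2.59 in stationary phase. *MET22*, a nucleotidase that clears the by-product of the pathway, had levels of -1.21, -2.30 and -2.32 in log phase, against -2.37, -1.19 and -2.56 in stationary phase. *MET16*, PAPS reductase, had levels of -1.32, -2.19 and -2.74 in log phase and of -2.38, -0.53 and -2.59 in stationary cells. In all 3 genes the *ccr4Δ* level was above the other strains in stationary phase, where *ccr4Δ pbp1Δ* lay below wild-type. *SAM1*, S-adenosylmethionine synthetase, was close to the limit in log phase, with ratios of -0.59 and 0.98, and its paralog *SAM2* was lower in log phase (-1.13) and within the limit in stationary phase (-0.53).

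Other genes of the sulfate list were higher in stationary phase without being lower in log phase. In stationary phase 24 of the 30 were higher and 1 lower, while in log phase 7 were higher and 5 lower. *MET17* had the highest ratio in stationary phase, 3.80, and narrowly missed the limit in log phase (-0.54). *MET5* and *MET3* were similar, with -0.49 and 2.24, and -0.54 and 1.69. The median of the list was -0.23 for log phase and 1.18 for stationary phase. With *ACT1* as the reference of the arrays both medians changed sign, to 0.11 and -0.14.

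**Figure D4:**
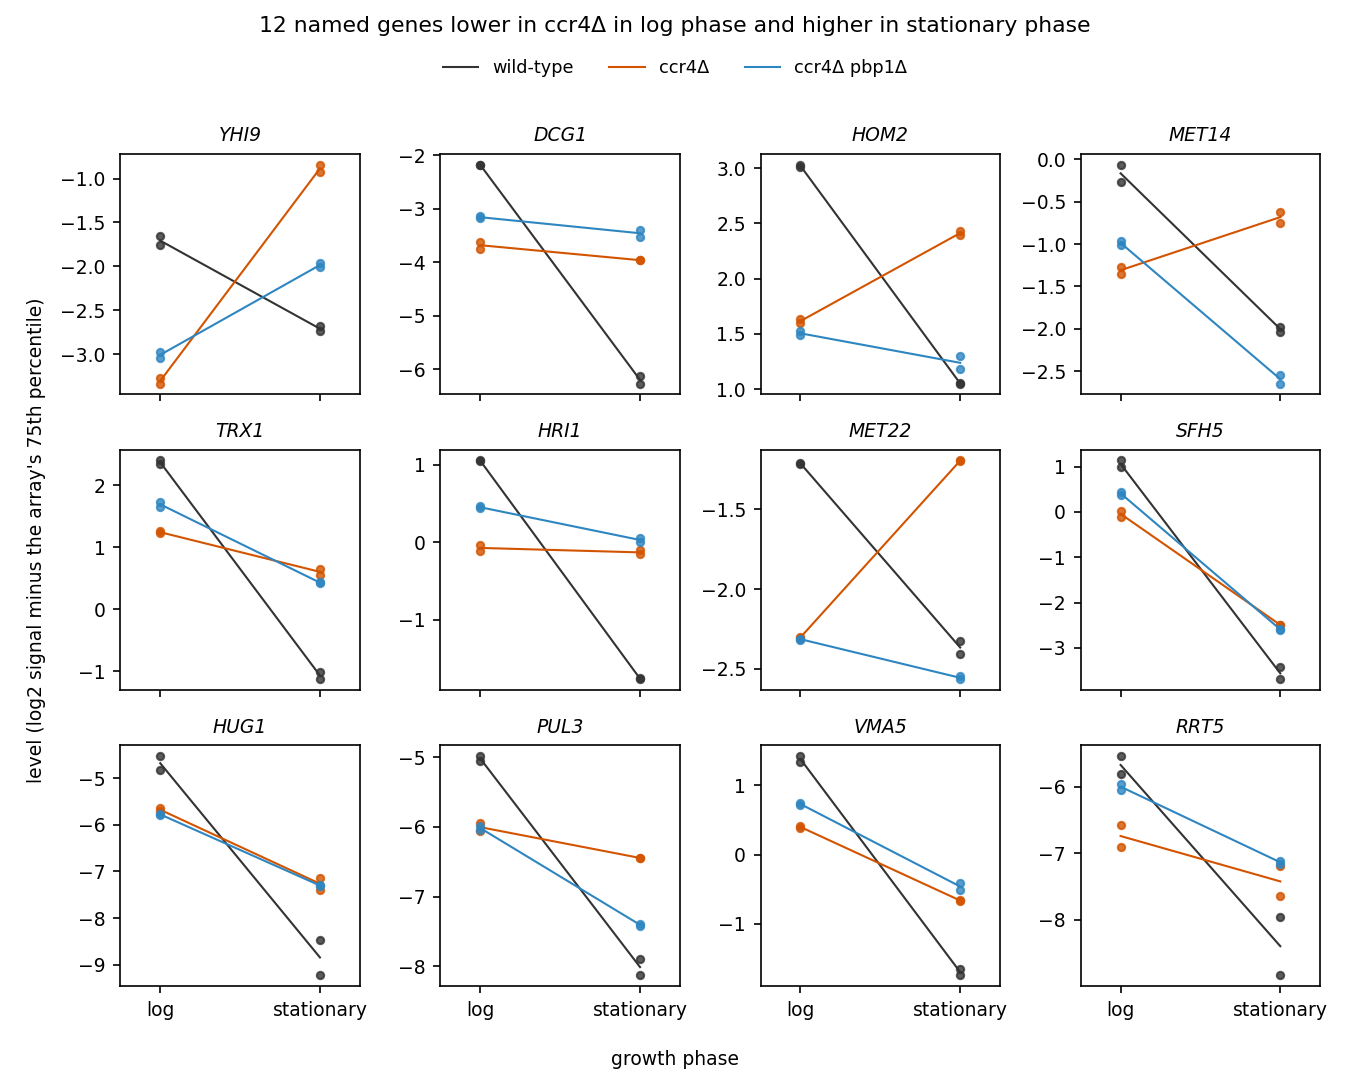
Levels (log2 signal minus the array's 75th percentile, vertical axes of differing range) in log and stationary phase for 12 genes that were lower in *ccr4Δ* in log phase and higher in stationary phase; points are the 2 spots of each array and lines join the spot means of each strain. In *MET22* the wild-type level goes from -1.21 to -2.37 and the *ccr4Δ* level from -2.30 to -1.19, and the spots of *HUG1* and *RRT5* lie farther apart than those of the other genes.

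Amino acid genes under Gcn4 gave 3 of the 90, out of 59 measured (5.08%). *HOM2*, aspartate-semialdehyde dehydrogenase on the way to methionine and threonine, had levels of 3.02, 1.62 and 1.5 in log phase, then 1.05, 2.41 and 1.24 in stationary phase. Its ratios were -1.40 ± 0.02 and 1.36 ± 0.02. The lysine genes *LYS21* and *LYS9* had -0.75 and 1.49, and -0.64 and 1.74. In log phase 7 of the 59 were higher and 17 lower, and in stationary phase 22 were higher and 10 lower. The median of the list was -0.36 for log phase and 0.44 for stationary phase, the latter turning to -0.88 with *ACT1* as the reference. *LEU2*, *LEU1* and *LEU9* were lower in both phases, with -3.74 and -1.99, -2.48 and -1.01, and -1.85 and -1.57. *LEU4* was within the limit, with -0.02 and 0.37. In the strain list the *ccr4Δ* strain has a *LEU2* marker that the wild-type lacks. If those strains were used, the marker and the loss of *CCR4* cannot be told apart in these lists.

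Redox and other housekeeping genes followed. *TRX1*, cytoplasmic thioredoxin, had levels of 2.37, 1.2 and 1.69 in log phase, against -1.07, 0.60 and 0.43 in stationary phase. *AHP1*, a thiol peroxidase, had ratios of -0.66 and 0.77, and it and *TRX1* were 2 of 30 antioxidant genes (6.67%). In log phase 2 of the 30 were higher and 6 lower, and in stationary phase 8 were higher and 5 lower. The median of that list was -0.19 for log phase, turning to 0.15 with *ACT1* as the reference. For stationary phase it was -0.12, turning to 0.02 with quantile normalization and to 0.03 with the authors' processed values. *VMA5*, a subunit of the vacuolar proton pump, had levels of 1.38, 0.40 and 0.73 in log phase and of -1.70, -0.66 and -0.46 in stationary cells. It was the only 1 of 17 V-ATPase genes in either direction. Of the 17, 10 were lower in log phase and 4 higher in stationary phase, against 15.8% and 22.5% of all genes. *SFH5*, a phosphatidylinositol transfer protein, had levels of 1.06, -0.04 and 0.41 in log phase, then -3.56, -2.49 and -2.59 in stationary phase. In these 4 genes the wild-type level was far lower in stationary than in log phase, and *ccr4Δ* showed a smaller difference. *ERG24*, a sterol reductase, had ratios of -0.61 and 1.12.

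The other genes of the named 12 have less settled roles. *YHI9*, of unknown function, had levels of -1.71, -3.30 and -3.01 in log phase, against -2.71, -0.89 and -1.98 in stationary phase, and *HRI1* had 1.05, -0.07 and 0.45, and -1.76, -0.13 and 0.03. *DCG1* had levels of -2.18, -3.68 and -3.16 in log phase and of -6.20, -3.96 and -3.46 in stationary cells. Only wild-type differed by more than 1.5-fold between the phases in *DCG1* and *HRI1*. *PUL3*, a putative transporter, had ratios of -0.98 and 1.57. *HUG1*, an inhibitor of ribonucleotide reductase, and *RRT5* were dim, with stationary phase ratios of 1.58 ± 0.41 and 0.97 ± 0.49, so that their spots set them apart less well. YMR173W-A, which overlaps *DDR48*, had -1.86 and 1.63, and *DDR48* itself, a stress gene, had -1.59 and 0.91, so that they may not be separate signals. Both were named after their values were seen. So were YOR385W (-1.18 and 2.97), YOL014W (-2.34 and 1.41) and *PRM7*, a pheromone-regulated gene (-2.87 and 0.81). Cytosolic ribosomal proteins gave 1 of 136 genes, *RPL18B*, and mitochondrial ribosomal proteins 0 of 75, against 1.56% of all genes among the 90.

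The errors from spots were small beside most of these ratios. In the 117 genes the median error was 0.07 for log phase and 0.05 for stationary phase, and in the 90 genes 0.06 in both. With the first spot of each probe alone, 108 of the 117 and 79 of the 90 passed the rule again, and with the second spot 111 and 84. The spread between cultures was not measured.

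The rule did not use the *ccr4Δ pbp1Δ* arrays, both on the second slide, so their signals had no part in the choice of genes. A gene that met the rule had to change between the phases in wild-type, in *ccr4Δ* or in both. The part of this in the values below was not tested. Of the 117 genes, 85 (72.6%) were at least 1.5-fold higher in stationary than in log phase in *ccr4Δ pbp1Δ* and 16 (13.7%) were lower. Over the 5727 genes measured these shares were 35.1% and 29.1%. The median change was 1.83 (3.55-fold) and that of all genes was 0.12. Of the 90 genes, 88 were measured in this strain, and 15 (17.0%) were higher and 47 (53.4%) lower, with a median of -0.68. In *ccr4Δ pbp1Δ* cells, most of the first kind were thus higher in stationary phase and most of the second kind lower. The other settings moved the median of the 117 genes to between 1.44 and 2.27 and that of the 90 genes to between -1.07 and -0.24.

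In wild-type, whose arrays the rule used and lay on different slides, 110 of the 117 genes were higher in stationary phase by at least 1.5-fold and 1 was lower (33.4% and 30.5% of all genes). The median was 3.28, or 9.70-fold. In *ccr4Δ* 71 were higher and 20 lower (29.0% and 26.8% of all genes), with a median of 0.85. For 13 of the 110 genes *ccr4Δ* was lower in stationary than in log phase by the same limit, as in *HXT7*, *CWP1* and *CHS3*. The remaining 26 were within the limit in *ccr4Δ*, as in *HXT6* and *DAL80*. Of the 90 genes, 79 were lower in stationary phase in wild-type and 1 was higher, with a median of -2.05. In *ccr4Δ* 31 were lower and 27 higher, with a median of -0.25. By arithmetic the *ccr4Δ* change differs from that of wild-type by as much as the ratios differ between phases, so the smaller change in *ccr4Δ* is the rule in another form and not a further result.

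**Figure D5:**
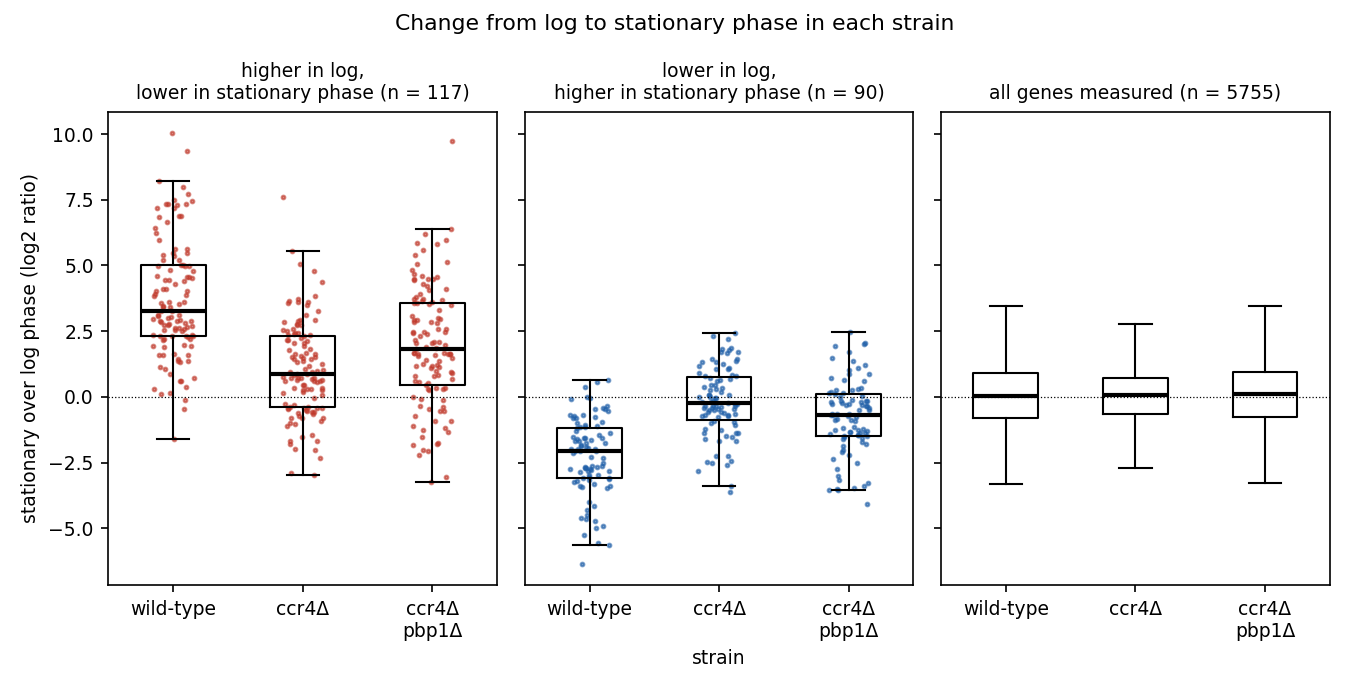
The log2 change between log and stationary phase, in that order, in each of wild-type, *ccr4Δ* and *ccr4Δ pbp1Δ* for the 117 genes, the 90 genes (88 in *ccr4Δ pbp1Δ*) and all genes measured on the 4 arrays of the rule (5755, and 5727 in *ccr4Δ pbp1Δ*); boxes span the quartiles with the median as a line, whiskers reach the last value within 1.5 box lengths, and points are genes (not drawn for all genes). The medians of the 117 genes are 3.28, 0.85 and 1.83, and those of the 90 genes are -2.05, -0.25 and -0.68.

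A second description takes the opposite route and sorts genes by the *ccr4Δ pbp1Δ* arrays alone, with class limits chosen after the values were seen. Over all 5727 genes measured, 2.04% were among the 117 and 1.54% among the 90. Of the 76 genes that were at least 16-fold higher in stationary than in log phase in that strain, 22 (28.9%) were among the 117 and 0 among the 90. The median *ccr4Δ* over wild-type ratio of these 76 genes was 1.35 in log phase and -0.52 in stationary phase. Of the 427 genes that were at least 4-fold higher, 55 (12.9%) were among the 117 and 3 among the 90, and the median ratio was 0.58 in log phase but -0.07 in stationary cells, close to that of all genes. Among 2049 genes within 1.5-fold, the shares were 0.781% and 1.27%. Of the 490 genes that were at least 4-fold lower, 5 (1.02%) were among the 117 and 15 (3.06%) among the 90, with medians of -0.40 and -0.53. These 490 genes thus had, by the median, a lower level in *ccr4Δ* than in wild-type in both phases.

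Deletion of *PBP1* in *ccr4Δ* cells can be set beside these values, but each comparison shares an array with the rule. In log phase the 117 genes had a median *ccr4Δ pbp1Δ* over wild-type ratio of 0.53, between 0 and the 1.07 of *ccr4Δ*. Over *ccr4Δ*, on the same slide, the median was -0.67. In stationary phase the median over wild-type was -1.12, near the -1.21 of *ccr4Δ*, and the median over *ccr4Δ* was 0.14. For the 88 genes measured of the other kind, the medians over wild-type were -0.57 for log phase and 0.94 for stationary phase, and over *ccr4Δ* 0.29 and -0.12. Over all genes these 4 medians lay between -0.10 and 0.04. The *ccr4Δ* arrays served to choose the genes, and the part of that choice in the ratios between the mutants was not tested.

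The change between the phases in *ccr4Δ pbp1Δ* lay between those of the other strains in 102 of the 117 genes and in 70 of the 90. These counts include the 2 genes whose signal in *ccr4Δ pbp1Δ* was not well above background. By the rule the changes of wild-type and *ccr4Δ* lie apart in each of these genes. The share over all genes was not computed, so the counts are a description and not a result about these genes. Levels of *ccr4Δ pbp1Δ* were nearer to one strain or the other from gene to gene. In *GDH3* and *DAL80* its log phase level, -4.60 and -4.73, was close to wild-type at -4.36 and -4.61, while in stationary phase, at 0.54 and -2.66, it was close to *ccr4Δ* at 0.42 and -2.69. *HXT5* and *SPS19* went the other way, with stationary levels of 1.67 and 0.68 that were closer to wild-type, at 2.38 and 1.22, than to *ccr4Δ*, at 0.38 and -0.73. In *EXG1* and *FAA1* the double mutant was farther below wild-type in stationary phase than *ccr4Δ* was, with ratios of *ccr4Δ pbp1Δ* over *ccr4Δ* of -1.37 and -1.02. *YPK2* and *MSN4*, named after their values were seen, had stationary phase levels in *ccr4Δ pbp1Δ* of -2.28 and -1.43, near those of *ccr4Δ* at -2.01 and -1.24.

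Some of the 117 genes lay next to each other. With the gene order of RefSeq, 114 of them were placed, and 16 (14.0%) had another of the 117 as a neighbour, against 3.80% of the 5523 measured genes that were placed. These made 8 pairs: *GDH3* and *BDH2*, *HBT1* and *FMP45*, *HXT7* and *HXT6*, *ECM38* and *EXG1*, *YPK2* and *PGM2*, *PHM7* and *ATG34*, *MPC54* and *GAC1*, and *PYK2* and *PUT4*. *BDH2*, a dehydrogenase gene beside *GDH3*, had ratios of 1.37 and -1.37, and *MPC54*, a sporulation gene beside *GAC1*, 1.22 and -1.21. Of the 90 genes 80 were placed, and 0 of them had another of the 90 as a neighbour, against 2.75% of the measured genes. Genes of opposite direction made 3 pairs of neighbours, *ILM1* and *JHD2*, *EXG1* and *HRI1*, and YMR321C and *SNO4*. Of the 8 pairs, *HXT7* and *HXT6* are copies of one another. *IMA3* and *IMA4*, with 0.93 and -0.67, and 0.92 and -0.65, and *HSP32* and *SNO4*, with 2.77 and -0.63, and 2.84 and -0.67, are also close relatives whose values on the array were almost the same, so that the 117 names stand for fewer separate signals.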

How the data were processed

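The authors deposited the scanner output of 6 arrays, from which the processed signal intensity of each spot was used, as Feature Extraction 11.0.1.1 gave it after background treatment, and a table of processed intensities whose sorted values are equal on all arrays (quantile normalization). Control spots and spots with an outlier flag were left out (0 to 2 per array). From the log2 intensity the 75th percentile of the array was subtracted, and spots were averaged per gene name. Symbols came from a RefSeq gene table of the R64 assembly, which held 5720 of the 6225 names, and 17 more by transcript. The arrays are annotated on an older build, so no coordinates are given. Promoter motifs, planned, were not searched here. The 42 gene lists and the member genes were chosen with earlier results of these data known. Named are the 12 genes of each direction with a symbol and the largest smaller ratio, up to 4 genes of each list with 2 or more, 3 on each side of the limit, and *CCR4*, *PBP1*, *ACT1* and *PGK1*. Other genes were named after their values were seen. No test was possible with 1 array per condition. Arrays limit the precision by their number. Alternatives were no scaling, scaling to the median or to *ACT1*, quantile normalization, normexp on the median signals, the authors' processed values, the brightest probe, kept outlier spots, single spots, other filters on dim probes and other limits. The code of the selection was run on simulated arrays with known ratios and only the noise of spots. Such a run checks the code and not the genes chosen. Python 3.11.15, pandas 2.3.3, R 4.3.3 and limma 3.58.1 were used.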

Additional observations from a re-analysis of the deposited data

Results flagged for a closer look

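Genes whose *ccr4Δ* over wild-type ratio pointed one way in log phase and the other way in stationary phase stand out by definition. The opposite directions are fixed by the rule that chose the genes, and the difference between the phases was not tested, since each condition had 1 array. As the stationary minus the log phase ratio (log2), the difference among the 117 genes had a median of -2.42, a smallest value of -1.22 and a largest of -6.61. The largest belonged to *SPG4* (-6.61), *HXT6* (-6.05), *HXT7* (-5.84), *RIM4* (-5.74) and *GAC1* (-5.44). It was -4.83 for *DDR2*, -4.35 for *GDH3*, -4.34 for *STL1* and -4.11 for *ADR1*. For *CYB2*, *HXT5*, *SPS19* and *DAL80* it was -3.71, -3.62, -3.55 and -3.40. Among the 90 genes the median was 1.99, the smallest value 1.20 and the largest 4.15. The difference was 3.73 for *DCG1*, 3.42 for *YHI9*, 2.80 for *TRX1* and 2.77 for *HOM2*. It was 2.75 for *HRI1*, 2.58 for *HUG1*, 2.55 for *PUL3* and 2.47 for *MET14*. For *MET22*, *SFH5*, *RRT5* and *VMA5* it was 2.27, 2.17, 2.04 and 2.02.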

How the results depend on the processing

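The counts of 117 and 90 genes became 197 and 46 with no scaling, 1113 and 3 with *ACT1* as the reference, 36 and 13 at a 2-fold limit, and 289 and 306 at a looser limit, set below 1.5-fold. Under the other settings they were 95 to 149 and 88 to 134. Over all genes the median stationary phase ratio was -0.08, and it became -0.48 with no scaling and -1.40 with *ACT1*, where the log phase median was 0.27. The median change from log to stationary phase in *ccr4Δ pbp1Δ* for the 117 genes (1.83) was 1.44 with no scaling, 1.60 with quantile normalization, 2.27 with *ACT1*, 1.65 with normexp and 1.60 with the authors' processed values. For the 90 genes (-0.68) it was -1.07 with no scaling and -0.24 with *ACT1*. With *ACT1* the stationary phase ratio turned to -0.35 for *RRT5*, -0.036 for *DUG1*, -0.25 for *SFH5*, -0.28 for *VMA5*, -0.56 for *AHP1*, -0.34 for *SAM1*, -0.20 for *ERG24* and -0.15 for *MET22*. Of the members named after their values were seen, *PRM7*, *DDR48*, *RPL18B*, *ILM1* and YMR321C turned to -0.51, -0.41, -0.27, -0.34 and -0.43. No other ratio of the 54 members named by rule changed sign under a setting tried. No paired analysis was possible because each condition has 1 array, and for the same reason no array could be left out. The dimmest genes, such as *HUG1* and *RRT5*, had the largest spread between spots among those named of the 90.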
